A study of Rattus norvegicus with 6 samples.

Results

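Genes that build ribosomes in the nucleolus were more often higher than lower in the diaphragm of diabetic rats compared with normal rats. A list of 60 genes that act in ribosome biogenesis was compared between the groups. On the array, 48 of the 60 had a probe set annotated to that gene alone, among 10410 genes with such a probe set. Of these, 47 had a mean signal above the filter used for testing, among 7079 genes in all. In diabetic muscle 10 of the 47 were higher (21.3% against 3.46% of all genes), none was lower (3.55% of all genes) and 37 did not pass. The median log2 fold change of the 47 was 0.51 against 0.01 over all genes tested. The list was chosen with earlier results of these data known. The largest rise was that of Gas5, a noncoding host gene of small nucleolar RNAs, followed by Polr1a, the largest subunit of RNA polymerase I, and Tsr1, a maturation factor of the small ribosomal subunit.

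Ribosome synthesis begins in the nucleolus, where RNA polymerase I transcribes the ribosomal RNA precursor. Small nucleolar RNAs, many of which are cut from introns of host genes, guide the chemical modification of this precursor in 2 kinds of particle, named box C/D and box H/ACA. A long series of processing factors then trims the RNA and assembles the small and large subunits before they leave the nucleus. In skeletal muscle the capacity for protein synthesis depends in part on the number of ribosomes, and insulin and the transcription factor Myc are known stimulators of their production.

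The samples were total RNA of the left costal hemidiaphragm of 6 male Wistar rats, with 1 Affymetrix RAE 230A array for each rat. At 8 weeks of age, 3 rats received streptozotocin, which destroys insulin-producing beta cells, at 60 mg/kg intraperitoneally in citrate buffer, and 3 normal rats received the buffer alone. Muscle was taken 4 weeks later after an overnight fast, and the diabetic rats were given no insulin. Each value is an MAS 5.0 signal, a brightness in arbitrary units scaled per array, and signals of 2 different probe sets cannot be set against each other as levels. A gene was called when its adjusted p was under 0.05 in limma's moderated test over all 9519 probe sets tested, and fold changes are on the log2 scale, diabetic minus normal.

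The arrays were alike in scale, with median signals of 167.1 to 180.5, but diabetic replicate 3 stood apart in its spiked bacterial transcripts, at 1.96 times their geometric mean over the arrays against 0.833 to 0.889 times on the other 5. Over the probe sets tested, normal replicate 3 correlated with normal replicates 1 and 2 at 0.961 and 0.954, against 0.973 between those. Diabetic replicate 3 correlated with diabetic replicates 1 and 2 at 0.963 and 0.961, against 0.972 between those. The ratio of 3′ to 5′ signal of control probe sets is a measure of RNA integrity. For GAPDH it was 2.71, 4.02 and 1.27 in normal and 2.91, 1.49 and 3.997 in diabetic replicates 1 to 3. For actin it was 1.475, 2.27 and 1.38 in normal and 1.71, 1.17 and 1.69 in diabetic replicates 1 to 3. The study reported lower maxima of both ratios for these samples, and the reason for the difference was not tested. Markers of muscle fibres were bright in every rat, with a summed signal of 14 genes of 269547 to 315486 in normal and 223477 to 302575 in diabetic muscle. Of these, 2 genes, Mb and Myh4, were lower in diabetic muscle. Fibroblast markers had a lower sum in diabetic muscle (27219 to 28340 against 50241 to 54097 over 9 genes, of which 5 were lower), as had those of smooth muscle (1836 to 2431 against 2549 to 3375, with 2 of 4 tested lower). The sum of 5 endothelial markers was higher (3008 to 3434 against 2422 to 2655, with Kdr the 1 gene called). Kdr was the largest part of each sum, and the other endothelial markers each overlapped between groups. Among 11 markers of cycling cells 3 were above the filter and none was called. The sums of the 11 overlapped at 2344 to 2550 in normal and 2127 to 3464 in diabetic muscle, and Pcna made up most of each. Below the filter and not tested, Mki67, Top2a, Ccnb2, Birc5 and Aurkb had every diabetic rat below every normal rat, and no marker had the reverse. Among all genes tested, 14.9% had every diabetic array below every normal array. Top2a, for example, was 93.7, 116.0 and 164.0 in normal and 20.5, 26.5 and 67.9 in diabetic replicates 1 to 3. The gap was very small in Mki67, whose lowest normal signal was 49.4 and highest diabetic signal 49.0. None of the 4 tested markers of muscle precursors and regenerating fibres was called. Their log2 fold changes were -1.37 for Myod1 (adjusted p = 0.055 by limma), -0.33 for Myog, -0.08 for Myf6 and 2.57 for Myh3, the embryonic myosin heavy chain (adjusted p = 0.081), whose normal mean signal was below the filter at 58.5. The summed signal of the 6 such markers on the array was 3364 to 3758 in normal and 3283 to 3442 in diabetic muscle, and Myf6 made up most of each sum. Below the filter and not tested, Myh8, the perinatal myosin heavy chain, was 31.0, 37.6 and 41.3 in normal and 63.2, 72.2 and 88.4 in diabetic replicates 1 to 3. Ncam1, also below the filter, overlapped between groups. Of the macrophage, adipocyte and red blood cell markers 6, 3 and 2 were tested and none was called, and all 6 liver markers on the array were below the filter. The part of these differences in the results was not tested, and in whole muscle fewer cells of a type and less RNA per cell cannot be told apart.

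Promoter sequences of the genes are shown first, because several of the genes share the letters CACGTG, the E-box bound by Myc and its partner Max and by other factors. The RefSeq promoters of the GRCr8 build run from 250 bases before to 50 after a start listed for each gene. This start need not be the end of the gene's RefSeq span. Of the 60 genes 54 had an entry, and 17 of the 54 (31.5%) held CACGTG. It was present in 7.69% of 19005 protein-coding genes and in 10.3% of 5968 genes that were above the signal filter and had an entry. The 54 include genes that were not tested, and of the tested ones 12 held CACGTG and 32 did not. The letters read the same on both strands. The 80 bases before the start are given for Gas5 and Polr1a, the genes with the largest rises, which hold no CACGTG in the window, and for the 6 tested genes that hold it within those 80 bases, with the motif in capitals and the strand of the gene.
Gas5 (chr13:75836883-75836962, + strand): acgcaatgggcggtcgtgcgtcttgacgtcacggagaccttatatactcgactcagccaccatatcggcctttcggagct
Polr1a (chr4:105508225-105508304, + strand): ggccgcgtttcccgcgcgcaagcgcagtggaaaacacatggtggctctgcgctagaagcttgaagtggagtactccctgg
Gnl3 (chr16:6219783-6219862, - strand): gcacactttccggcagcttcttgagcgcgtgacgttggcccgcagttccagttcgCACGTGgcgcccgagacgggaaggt
Ltv1 (chr1:9398558-9398637, - strand): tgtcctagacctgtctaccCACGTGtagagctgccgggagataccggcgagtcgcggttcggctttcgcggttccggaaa
Nle1 (chr10:68340181-68340260, - strand): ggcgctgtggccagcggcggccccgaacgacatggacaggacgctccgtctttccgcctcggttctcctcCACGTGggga
Pes1 (chr14:83074266-83074345, + strand): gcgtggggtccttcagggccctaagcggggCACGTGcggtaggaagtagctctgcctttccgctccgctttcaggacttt
Rrp1 (chr20:10260500-10260579, + strand): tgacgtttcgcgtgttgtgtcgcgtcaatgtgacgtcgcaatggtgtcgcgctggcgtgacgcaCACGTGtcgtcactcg
Utp4 (chr19:51702161-51702240, + strand): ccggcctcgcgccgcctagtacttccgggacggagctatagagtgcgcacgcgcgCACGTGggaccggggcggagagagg
The motif began 25 bases before the listed start in both Gnl3 and Utp4, 10 in Nle1, 16 in Rrp1, 50 in Pes1 and 61 in Ltv1. The RefSeq span of Gnl3 is chr16:6213844-6220029, so its printed bases and motif lie within that span. The 12 tested genes with CACGTG had a median log2 fold change of 0.47 with 2 higher (Gnl3 and Tsr1), and the 32 with an entry but without it had a median of 0.51 with 6 higher. The difference between these medians was not tested. The 6 printed genes with the motif ranged from Rrp1, 1 of only 2 genes of the list with a negative log2 fold change, to Gnl3, 1 of the 10 that rose.

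Across the list, 45 of 47 tested genes had a log2 fold change above 0, which was true of 50.8% of all genes tested. The 10 that were higher made up 21.3% of the list against 3.46% of all genes, and the count of 0 lower stood against 3.55% of all genes. At an unadjusted limma p under 0.05, 30 of the 47 were higher and 0 were lower, where 12.8% and 11.9% of all genes were higher and lower. In 28 genes every diabetic array lay above every normal array and in 0 every one lay below, against 15.9% and 14.9% of all genes. The log2 fold changes of the 47 genes ranged from -0.31 to 2.76. Of the 10 called genes 3, Gas5, Polr1a and Gnl3, had been picked by the study on these same arrays, so their rise is not independent evidence. Without them 7 of 44 genes were higher (15.9%) and the median was 0.51. The 44 are not independent evidence either, since the whole list was chosen with earlier results of these data known. All 47 had a normal mean signal above the filter (106), the lowest being 109 for Nop14, so none was tested only because of its diabetic signal.

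**Figure D1:**
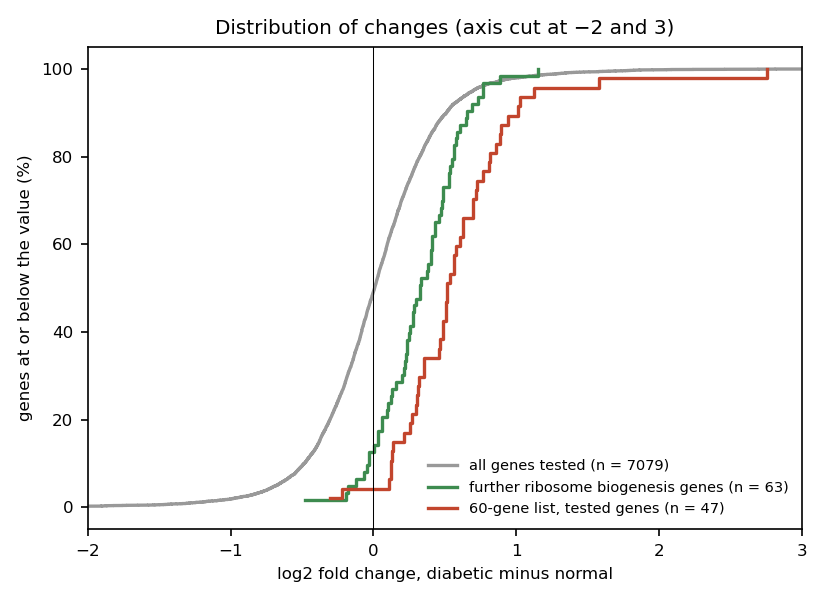
Cumulative share of genes (%) at or below each log2 fold change (diabetic minus normal) for all 7079 genes tested (grey), 63 further ribosome biogenesis genes with both group means above the filter (green) and the 47 tested genes of the 60-gene list (red). The red curve crosses 50% at 0.51 and the green at 0.33, where all genes cross at 0.01.

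The number of called genes depended on single arrays. Leaving out normal replicate 3 or diabetic replicate 3 left 5 of the 10 in each case, and leaving out normal replicate 1 or diabetic replicate 2 left 6. Gas5, Polr1a, Tsr1, Nob1 and Gnl3 passed in all 16 alternative settings, while Gnl2, Rrs1, Gar1, Polr1b and Ddx21 each failed in at least 4. Over all genes the number higher fell also, from 245 to between 104 and 177, when an array was left out. The median over the list ranged from 0.45 to 0.59 in these fits.

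RNA polymerase I was measured through 5 of its subunits and 1 factor. Polr1a and Polr1b, the large subunits that form its catalytic center, rose, and 4 of the 6 genes tested did not pass. The median log2 fold change of the 6 was 0.64, against 0.01 over all genes tested. Of all genes, 3.46% were higher and 15.9% had every diabetic array above every normal array. The signal of Polr1a was 305, 239 and 256 in normal and 687, 810.2 and 892 in diabetic replicates 1 to 3. The lowest diabetic rat was above the highest normal rat by more than the range within either group, and the log2 fold change was 1.58 (standard error, SE, 0.17, adjusted p = 0.0011 by limma). For Polr1b the signals were 325, 357 and 207 against 507, 557 and 599. Normal replicate 3 was low and the groups did not overlap (log2 fold change 0.94, SE 0.22, adjusted p = 0.030 by limma). Polr1b lost its call when normal replicate 1 or 3 or any single diabetic replicate was left out, with adjusted p of 0.057 to 0.091 and log2 fold changes of 0.70 to 1.03.

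Polr1e, a subunit that aids initiation, had signals of 120, 157 and 107 in normal and 178, 234 and 262 in diabetic muscle, again with no overlap, and a log2 fold change of 0.81 that did not pass (adjusted p = 0.074 by limma). Polr1c, a subunit shared with RNA polymerase III, had 418, 423 and 330.0 against 547, 566 and 499 (log2 fold change 0.47, adjusted p = 0.12). Ubtf, the upstream binding factor of ribosomal DNA, overlapped between groups (0.35, adjusted p = 0.33). Polr1d, also shared with RNA polymerase III, had 2 probe sets that disagreed in direction, at 0.26 for the brighter (adjusted p = 0.28) and -0.15 for the dimmer (adjusted p = 0.69). Taf1d, a subunit of the promoter selectivity factor of RNA polymerase I, had no probe set of its own.

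Gas5 had the largest log2 fold change of the 47 tested genes. It was 846, 834 and 507 in normal replicates 1 to 3 and 3291, 5477 and 6147 in diabetic replicates 1 to 3. All 3 diabetic rats were at least 3 times brighter than any normal rat, with diabetic replicate 1 the lowest of them. The means were 729 ± 193 (SD, n = 3) and 4972 ± 1494 (SD, n = 3), the log2 fold change was 2.76 (SE 0.27, adjusted p = 0.00061 by limma), and it ranked 4 among the rises of all 7079 genes tested. Gas5 encodes no functional protein, and its spliced transcript is known to be broken down by nonsense-mediated decay as it is translated. It lies at chr13:75836963-75840284 of GRCr8, where RefSeq places 9 small nucleolar RNA genes within its span. Of the nonsense-mediated decay factors looked for, Upf2 was on the array with a probe set of its own, at a log2 fold change of 0.31 (adjusted p = 0.27), which did not pass, and Upf1 and Smg1 had none.

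**Figure D2:**
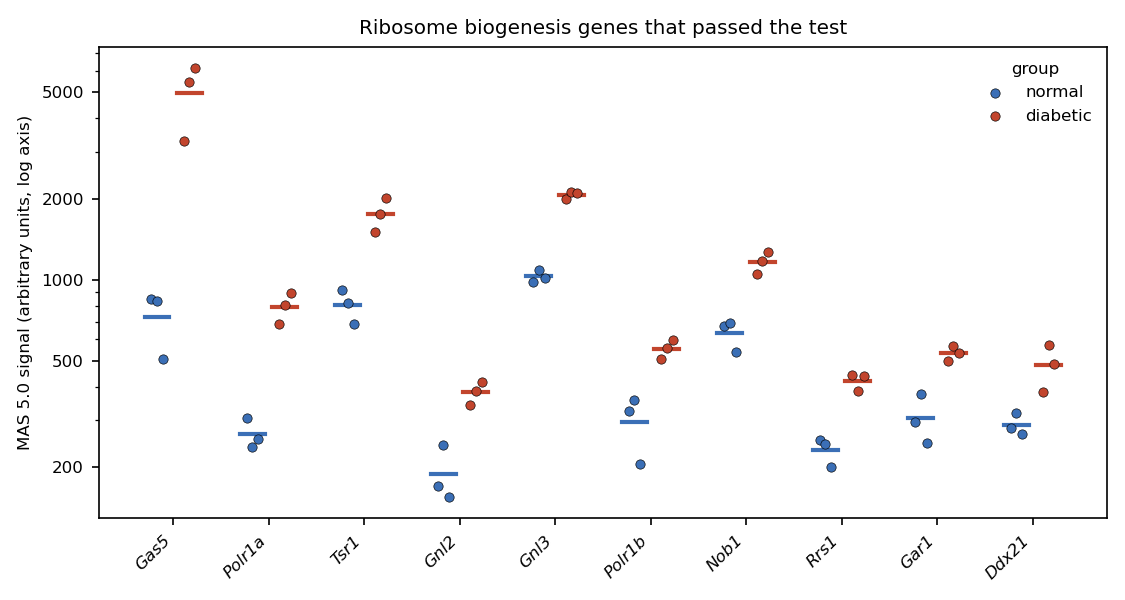
MAS 5.0 signal (arbitrary units, log axis) of the 10 ribosome biogenesis genes that passed the test, with 1 point per rat and a bar at the group mean, ordered by log2 fold change. In each gene the 3 diabetic rats (red) lie above the 3 normal rats (blue), most widely in Gas5.

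The proteins of the box C/D particle, which guides methylation of ribosomal RNA, moved less than Gas5 and none of the 4 passed. Nop58, a core protein, was 461, 561 and 473 in normal and 827, 669.8 and 780.3 in diabetic muscle. These values did not overlap, and the log2 fold change was 0.61 (SE 0.16, adjusted p = 0.053 by limma). Rrp9, a protein of the U3 particle (0.63 on the log2 scale, adjusted p = 0.12), and Nop56, the partner of Nop58 (0.51, adjusted p = 0.12), had no overlap between groups either. Fbl, the methyltransferase fibrillarin, overlapped, at 438, 561 and 535 against 519.6, 522 and 627 (log2 fold change 0.12, adjusted p = 0.71).

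In the box H/ACA particle, which guides the change of uridine to pseudouridine, 1 of 4 proteins rose, where 3.46% of all genes were higher. The median log2 fold change of the 4 was 0.31. Gar1 was 296, 377 and 247 in normal and 498, 569 and 534 in diabetic replicates 1 to 3. The highest normal rat remained below the lowest diabetic rat (log2 fold change 0.82, SE 0.19, adjusted p = 0.030 by limma), and the call was lost without normal replicate 1 or 3 or any single diabetic replicate (adjusted p of 0.064 to 0.095). Nhp2 (log2 fold change 0.31, adjusted p = 0.30) and Nop10 (0.11, adjusted p = 0.71) overlapped between groups. Dkc1, the pseudouridine synthase dyskerin, was 249.1, 205 and 279 in normal and 300.4, 500.1 and 178 in diabetic replicates. Diabetic replicate 2 was high and diabetic replicate 3 was below every normal rat, and the log2 fold change of 0.30 (adjusted p = 0.62) became -0.07 without diabetic replicate 2.

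Host genes of small nucleolar RNAs were found at more than 1 step. Small nucleolar RNA genes were counted within the RefSeq span of each gene, with strand not considered. Of the 47 tested genes 7 (14.9%) were hosts, against 203 of 7079 (2.87%) over all genes tested. The list was chosen to include such hosts, so its larger share is not a result. Beside Gas5 these were Nop56 and Nop58 with 5 each, Gnl3, Ncl and Wdr43 with 3 each and Tsr1 with 2, and Taf1d, which was not measured, held 8. The 7 had a median log2 fold change of 0.70, and the other genes of the list had a median of 0.50. Of the 7, 3 were higher (Gas5, Tsr1 and Gnl3), and Gas5 and Gnl3 are among the genes picked by the study. The 196 hosts outside the list had a median of 0.15, with 7 higher and 7 lower, against 0.00 for other genes outside the list.

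Among the factors of small subunit processing, 3 of 12 rose (25.0% against 3.46% of all genes) and 9 did not pass. The median log2 fold change of the 12 was 0.54. Tsr1, a GTPase-like protein of the late precursor of the small subunit, was 919, 819 and 683 in normal and 1506, 1755 and 2013 in diabetic replicates 1 to 3. Nob1, the nuclease that makes the final cut at the 3′ end of the small subunit RNA, was 672, 693 and 538 against 1055, 1179.5 and 1266. Neither gene overlapped between groups, and normal replicate 3 and diabetic replicate 1 were the lowest of their groups in both. The log2 fold change was 1.12 for Tsr1 (SE 0.17, adjusted p = 0.0055 by limma) and 0.88 for Nob1 (SE 0.16, adjusted p = 0.012). Ddx21, a nucleolar RNA helicase, was 279.6, 319 and 266 against 383, 573 and 488, with no overlap and a narrow gap. Its log2 fold change of 0.72 was just inside the threshold (SE 0.19, adjusted p = 0.049 by limma), and without any single array except diabetic replicate 1 its adjusted p was 0.069 to 0.15.

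The 3 small subunit factors with the next largest changes did not pass. Ltv1, which acts with Tsr1 and Nob1 in the late precursor, was 446, 396 and 308 in normal and 388, 751 and 834 in diabetic replicates 1 to 3, with diabetic replicate 1 inside the normal range (log2 fold change 0.72, adjusted p = 0.15 by limma). Without diabetic replicate 1 the adjusted p was 0.028. Wdr43, of the early-binding complex on the precursor, was 441, 490.0 and 249.9 against 667, 529.9 and 649.7, and did not overlap (0.70, adjusted p = 0.12). Bms1, a GTPase of the early processing complex, was 444, 474 and 375 against 584, 650.0 and 672, also without overlap (0.56, adjusted p = 0.066). The other 6 had log2 fold changes of 0.12 to 0.51, from Ddx10 to Nop14, and Heatr1, Utp14a, Utp18, Emg1 and Rrp12 had no probe set of their own.

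Large subunit processing held the most genes of any step, with 18 tested, of which 3 rose (16.7% against 3.46% of all genes). A log2 fold change above 0 was found in 16 of the 18 (50.8% of all genes), and the median was 0.54. The 3 that rose were the nucleolar GTPases Gnl3 and Gnl2 and the assembly factor Rrs1. Gnl3, or nucleostemin, was 987, 1089 and 1020.1 in normal and 1999.6, 2133 and 2109 in diabetic replicates 1 to 3. The 3 rats of each group were within a narrow range and the groups were far apart (log2 fold change 1.01, SE 0.14, adjusted p = 0.0035 by limma). Gnl2, a related GTPase needed for export of the large subunit, was 171, 243 and 156 against 343, 386 and 415. Rrs1, which helps to place the small ribosomal RNA of the large subunit, was 254, 245 and 201 against 443, 385 and 437. Both were without overlap, at 1.03 for Gnl2 (SE 0.21, adjusted p = 0.018 by limma) and 0.86 for Rrs1 (SE 0.17, adjusted p = 0.018). Gnl2 failed without normal replicate 1 or 3 or diabetic replicate 2 or 3 (adjusted p of 0.051 to 0.063), and Rrs1 without normal replicate 3 or diabetic replicate 1 or 3 (0.053 to 0.061).

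Nvl, an ATPase that removes factors from the large subunit precursor, lay just outside the threshold. Its signals were 142, 232 and 152 in normal and 357, 259 and 347 in diabetic replicates 1 to 3, without overlap (log2 fold change 0.89, SE 0.24, adjusted p = 0.0504 by limma). Pes1, the partner of Bop1 and Wdr12, varied widely, at 388, 279.6 and 147 against 305, 589 and 442, and overlapped (0.77, adjusted p = 0.20). Grwd1, a histone-binding ribosome assembly factor, was 291, 276 and 202 against 414, 354 and 473, without overlap (0.70, adjusted p = 0.066). The others that did not pass ranged from -0.31 for Rrp1 to 0.63 for Mrto4. Rrp1 and Gnl3l, the closest relative of Gnl3, were the only genes of the 47 with a log2 fold change under 0 (-0.31, adjusted p = 0.45, and -0.22, adjusted p = 0.49), and both overlapped between groups. In Gnl3l the diabetic signals were 901, 644 and 782 against 928, 987 and 784 in normal muscle, where Gnl3 was higher in every diabetic rat.

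Sdad1, another large subunit factor, was too dim for the test. Its signals were 11.4, 18.3 and 19.5 in normal and 72.5, 103 and 53.7 in diabetic replicates 1 to 3. Every diabetic rat was above every normal rat but all lay below the filter level of 106. With no filter its log2 fold change was 2.21 (SE 0.45, adjusted p = 0.038 by limma). Bop1, Ddx18, Pwp1 and Nop2 had no probe set of their own.

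**Figure D3:**
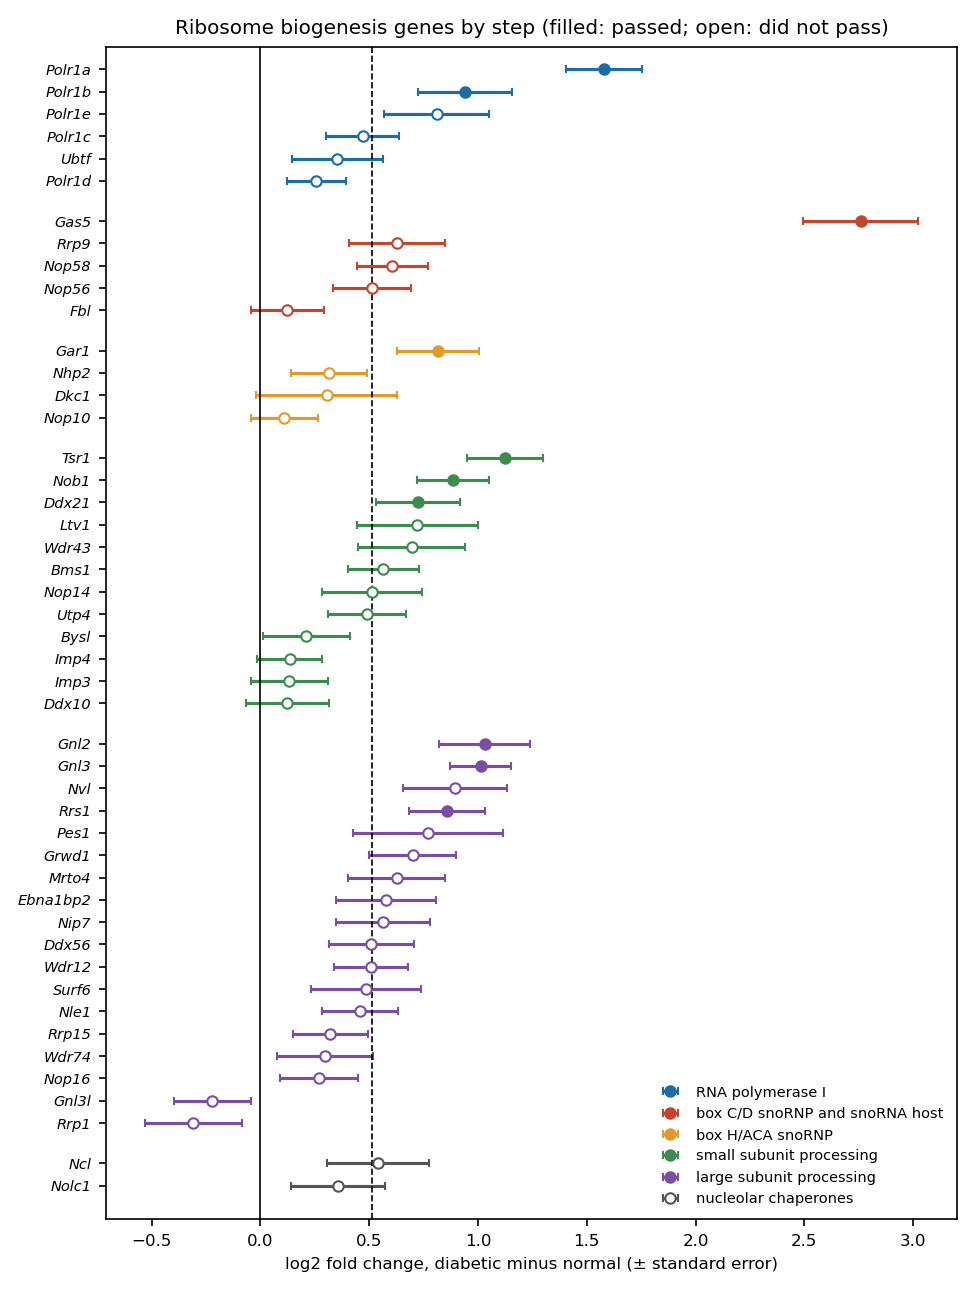
Log2 fold change (diabetic minus normal) with its standard error for each of the 47 tested genes, grouped and colored by step, with filled points for the 10 that passed and open points for the 37 that did not. The dashed line is the median of 0.51, and 2 points, Gnl3l and Rrp1, lie to the left of 0.

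Of the nucleolar chaperones 2 were tested and neither passed. Ncl, or nucleolin, was 1017, 1079.7 and 1000.2 in normal and 1039, 1499 and 2158 in diabetic replicates 1 to 3. Diabetic replicate 1 was within the normal range while diabetic replicate 3 was above all others (log2 fold change 0.54, SE 0.23, adjusted p = 0.19 by limma). Nolc1, which escorts the small nucleolar particles, had a log2 fold change of 0.36 in its brightest probe set, with overlap (adjusted p = 0.35), and 0.58 in a dimmer one (adjusted p = 0.11). The third probe set of Nolc1 was below the filter. Npm1, or nucleophosmin, and Npm3 had none of their own. The 3 probe sets annotated to Npm1 are shared with its pseudogene Npm1-ps9, so that the transcripts cannot be told apart, and they had log2 fold changes of 0.58, 0.59 and 0.42. The brightest of these was 2402, 3261 and 2298 in normal and 3535, 3911 and 4366 in diabetic muscle (adjusted p = 0.071 by limma), and none of the 3 was counted.

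The rats differed among themselves in the level of the whole list. Taking for each gene the deviation of its log2 signal from its mean over the 6 arrays, the mean over the 47 genes was -0.23, -0.20 and -0.44 in normal and 0.18, 0.33 and 0.35 in diabetic replicates 1 to 3. The mean over all 7079 genes stayed between -0.03 and 0.04. Normal replicate 3 was the lowest of all 6 arrays in 29 of the 47 genes, and diabetic replicate 1 was the lowest of its group in 26. The groups did not overlap in the mean of any step except the chaperones, where diabetic replicate 1 (-0.06) was below normal replicate 3 (-0.04). Across genes, the log2 fold change had a Spearman correlation with mean signal of -0.10 over the 47 and -0.02 over all genes, which share the same 6 arrays.

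**Figure D4:**
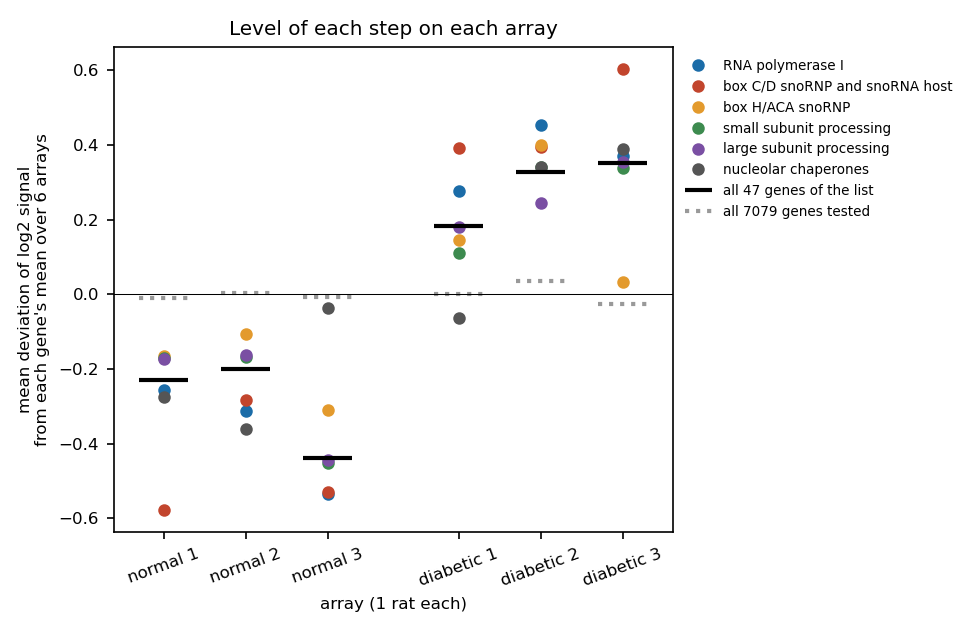
Mean deviation of log2 signal from each gene's mean over the 6 arrays, by array, for each step (colored points), all 47 genes (black bars) and all 7079 genes tested (dotted bars). The black bars are at -0.44 to -0.20 in normal and 0.18 to 0.35 in diabetic rats, and the dotted bars stay near 0.

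Further genes of the pathway, under 114 symbols that are not on the list, were examined in the same fit. They are mainly processing factors and polymerase genes, with assembly factors of the small nucleolar particles among them. Of 67 tested, 4 were higher (5.97% against 3.46% of all genes), 0 were lower and 63 did not pass. Among the 67 were Wdr3, Taf1c, Rrp7a and Urb2, with a normal mean signal below the filter, which passed it only through their diabetic signals. Among the other 63, 3 were higher (4.76%), 0 were lower and the median log2 fold change was 0.33. Of these 63, 23 were higher and 0 lower at an unadjusted limma p under 0.05, against 12.8% and 11.9% of all genes. In 27 every diabetic array was above every normal array (15.9% of all genes), and 55 had a log2 fold change above 0 (50.8% of all genes). Gtpbp4, a GTPase of the large subunit precursor, was 435, 488 and 425 in normal and 854, 859 and 783 in diabetic replicates 1 to 3, with no overlap (log2 fold change 0.89, SE 0.15, adjusted p = 0.0087 by limma). Mphosph10, which joins the U3 particle with Imp3 and Imp4, was 138, 160.1 and 97.6 against 247, 316 and 303 (1.15, adjusted p = 0.018), although Imp3 and Imp4 themselves were at 0.13 each. Ftsj3, a methyltransferase of the large subunit precursor, was 241, 205 and 225 against 402, 321 and 423 (0.77, adjusted p = 0.033). Wdr3, of the small subunit processing complex, was 80.2, 81.2 and 143 against 188, 225 and 325 (1.29, adjusted p = 0.031), and its fold change is imprecise at that normal level.

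These 4 calls were not equally firm. Gtpbp4 kept its call when any single array was left out, but lost it when the log2 signals of its probe sets were averaged (log2 fold change 0.82, adjusted p = 0.063 by limma). Mphosph10 lost it without diabetic replicate 2 or 3 (adjusted p of 0.069 and 0.062), Wdr3 without normal replicate 1 or 2 or diabetic replicate 2 or 3 (0.078 to 0.11), and Ftsj3 without any single array except diabetic replicate 2 (0.071 to 0.10).

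Genes known to control ribosome synthesis were examined as context, in a list of genes of the Myc network and of the insulin and mTORC1 pathways. Of 20 tested, Upf2 not counted, 5 were higher (25.0% against 3.46% of all genes), 1 was lower (3.55% of all genes) and the median log2 fold change was 0.36 against 0.01. The median was 0.21 without Mxd4, whose normal mean signal was below the filter. The list mixes genes that promote and genes that restrain growth or ribosome synthesis, so its counts and median give no direction for ribosome synthesis. Myc, which activates genes of ribosome biogenesis, was 339, 261 and 219 in normal and 770.3, 436 and 830.2 in diabetic replicates 1 to 3. Diabetic replicate 2 was the nearest to the normal rats and the groups did not overlap (log2 fold change 1.28, SE 0.26, adjusted p = 0.018 by limma), but the adjusted p was 0.050 to 0.066 without normal replicate 2 or 3 or diabetic replicate 1 or 3. Neither its partner Max (0.61 on the log2 scale, adjusted p = 0.12) nor Mnt, a repressor that competes with Myc for Max (0.59, adjusted p = 0.12), passed.

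Genes of the insulin and mTORC1 pathways made up the rest of those called. Eif4ebp1, a repressor of translation that mTORC1 inactivates, was 1897, 1489 and 888 in normal and 5333, 4605 and 5973 in diabetic replicates 1 to 3, with a log2 fold change of 1.96 (SE 0.25, adjusted p = 0.0024 by limma). Deptor, an inhibitor bound to mTOR, was 2423, 2337 and 2803 against 1339.7, 1213 and 865 and was the 1 gene that fell (-1.17, SE 0.19, adjusted p = 0.0062). In both genes the groups were far apart, and each was called in all 16 alternative settings, as was Foxo3, a transcription factor that insulin restrains (log2 fold change 1.04, adjusted p = 0.0078). Sesn1, an inhibitor of mTORC1 signaling, rose by 1.51 on the log2 scale (adjusted p = 0.014), with an adjusted p of 0.051 and 0.053 without diabetic replicate 1 or 3. Tsc1, of the complex that restrains mTORC1, had one of 0.71 (adjusted p = 0.044) and lost its call without any single array (0.060 to 0.14). Mtor itself did not pass (0.21, adjusted p = 0.53).

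**Figure D5:**
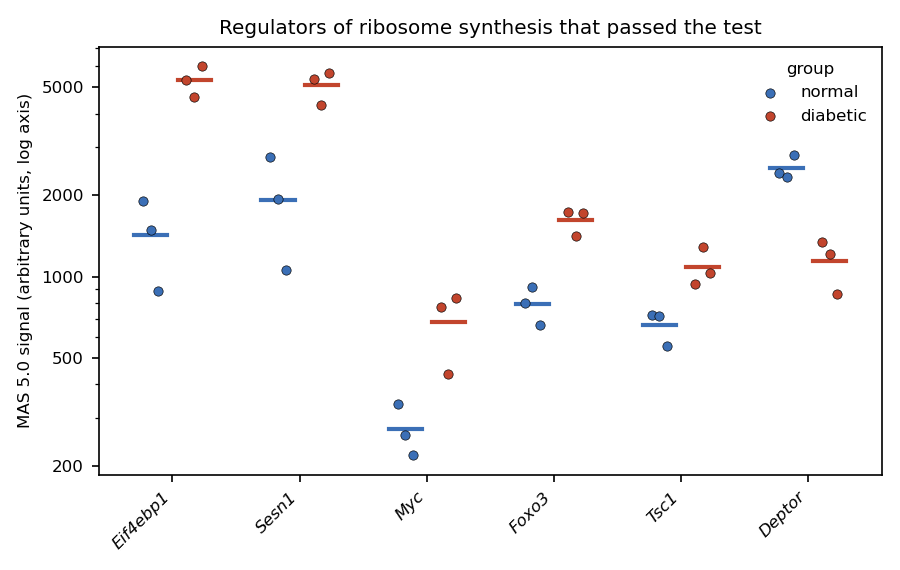
MAS 5.0 signal (arbitrary units, log axis) of the 6 regulators of ribosome synthesis that passed the test, with 1 point per rat and a bar at the group mean. The diabetic rats (red) lie above the normal rats (blue) in the first 5 genes and below them in Deptor.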

How the data were processed

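Rat diaphragm RNA was measured on 6 Affymetrix RAE 230A arrays, 3 per group, with 1 rat per array. The authors deposited an intensity per probe set, made with MAS5 per the submitters' processing notes and scaled per array (trimmed mean 500.2 on every array). The MAS5 scaling target is not given in the sources used here. Present calls and the BAM statistics were not used. Groups came from the sample titles.

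Of 15923 probe sets, 57 controls were left out. Of the rest, 12783 had 1 gene in the platform annotation, 312 had several and 2771 had none, and genes were named only from the first kind. Where a gene had several probe sets, the brightest on average stood for it. The log2 scale was used after 136 values below 1 had been raised to 1, and the arrays were not normalized again. Probe sets with a mean signal above the 40th percentile (106) entered a linear model in limma 3.58.1 (R 4.3.3), with lmFit, eBayes with a trend and Benjamini-Hochberg adjustment over all 9519. The 6 arrays left 4 residual degrees of freedom, and their number limits the precision. The procedure was tested on simulated data.

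The 60 genes, the further lists and the tests were chosen with earlier results of these data known. No test was made over the list as a whole, and its counts and median stand beside those of all genes tested. Genes named are those that passed, the 3 others with the largest change in each step, the genes of the pathway and regulator lists that passed, and genes under the filter. Both probe sets of Polr1d, Fbl, Gnl3l, Rrp1, Ddx10, Nop14, Mrto4, Imp3, Imp4, Mb, Myh4, Kdr, Myod1, Myog, Myf6, Myh3, Taf1c, Rrp7a, Urb2, Mxd4, Upf2, Max, Mnt and Mtor were named beyond this rule, after their values were seen, as ends of a range, partners of a named gene, genes near the filter or markers. So were the markers Pcna, Mki67, Top2a, Ccnb2, Birc5, Aurkb, Myh8 and Ncam1. Alternatives were 2 other array scalings, offsets of 16 and 64 before log2, no filter or the 60th percentile, no trend, weights per array, a block for the replicate number, the mean over a gene's probe sets, and each array left out in turn. Motif counts and sequences are from RefSeq promoters of GRCr8, with Python 3.11.15.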

Additional observations from a re-analysis of the deposited data

How the results depend on the processing

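None of the genes of the list was lower in any of the 16 alternatives, and in them the list's median log2 change ran from 0.45 to 0.59. The count of 10 higher became 5 to 10 when an array was left out, with 5 without normal replicate 3 or diabetic replicate 3 and 6 without normal replicate 1 or diabetic replicate 2. It was 6 with the replicate block, which fits the replicate number as a factor (Gas5, Gnl2, Gnl3, Nob1, Polr1a and Tsr1), and 8 to 12 in the rest. Some counts include genes outside the 10, such as Sdad1 with no filter, where Polr1b, Gar1 and Ddx21 were lost. Ltv1 entered without diabetic replicate 1, and Nvl without normal replicate 2. The replicate numbers gave no sign of a pairing of the rats. Deviations of same-numbered arrays correlated at 0.098, -0.20 and -0.07, and those of differently numbered arrays at -0.12 to 0.20. With 3 arrays per group these values cannot settle whether the rats were paired. Over all genes the count higher went from 245 to 128 and the count lower from 251 to 131 with the replicate block, and to 151 and 171 with no filter. The fits with the block or without an array have fewer residual degrees of freedom, and the unfiltered fit tests 10410 genes. With no trend in the variance prior, which keeps all arrays, Ddx21 was lost and the counts over all genes were 171 and 193, and the cause was not tested.

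The further pathway genes went from 4 higher to 2 with no filter and 1 to 3 when an array was left out, with 1 without diabetic replicate 3 and 2 without normal replicate 1 or diabetic replicate 2. Regulators went from 5 higher to 2 to 4, with 2 without diabetic replicate 1 or 3 and 3 without normal replicate 2 or 3. Deptor stayed the 1 lower regulator in every alternative. For the 27 named genes of the list, among log2 fold changes under the alternatives, 389 stayed on their side of the threshold, 30 dropped out of it, 9 came past it and 1 changed sign (Dkc1, -0.066 without diabetic replicate 2, in a range of -0.066 to 0.68 when an array was left out). The 10 called pathway and regulator genes lost 30 of 158 calls.

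Dim probe sets limit what can be read. Of the list, 12 genes were not measured, Sdad1 lay under the filter, and brightness was judged without present calls. A gene that did not pass is not shown to be unchanged.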
